A study of Canis lupus familiaris with 39 samples.

Results

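Surfactant and alveolar secretory genes were followed over all 39 arrays of 10 pathologically normal dog organs. The group was set by name as 10 genes: SFTPA1, SFTPB, SFTPC, SFTPD, NAPSA, ABCA3, LAMP3, SCGB1A1, NKX2-1 and AGER. A probeset, the set of short probes that the array reads as 1 unit, was taken where the array's gene table gave it exactly 1 symbol and that symbol was on the list. This gave 14 of the 42860 probesets and 8 of the 10 genes, since no probeset carried SFTPA1 or SFTPB as its only symbol. SCGB1A1 and AGER had 3 probesets each, SFTPC and NAPSA had 2 each, and SFTPD, ABCA3, LAMP3 and NKX2-1 had 1 each.

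Pulmonary surfactant is a film of phospholipid and protein that lowers surface tension in the alveoli and keeps them open. Alveolar type II cells make its lipids and proteins, store them in lamellar bodies and secrete them, while thin alveolar type I cells form the gas exchange surface and club cells secrete proteins into the small airways. NKX2-1 is the homeobox factor that directs these epithelial programmes in lung, and it also acts in thyroid. Several of the genes are known outside lung: SFTPD is a collectin of host defence at mucosal surfaces, NAPSA is an aspartic protease also found in kidney tubules, and LAMP3 marks mature dendritic cells.

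The organs were brain (cerebrum), heart, jejunum, kidney, liver, lung, peripheral lymph node, pancreas, skeletal muscle and spleen, each with 4 arrays except pancreas with 3. Per the study's methods they came from the same 4 dogs, beagles and mixed breed dogs of both sexes that ranged from juvenile to adult. All groups therefore share donors, and differ by design in the organ sampled. Each value is a deposited log2 value after RMA (robust multichip averaging). It is a relative signal that compares a probeset between arrays, and it is not an amount of transcript. Array medians ran from 3.95 to 4.11, and values close to 4 were therefore typical of the array. In such bulk samples, fewer cells of a type and less RNA per cell cannot be told apart.

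Of 40 defining markers of the organs, 38 had their highest mean in the organ on the label. The exceptions were AQP5, listed for lung and highest in pancreas, and ATP2A1, listed for skeletal muscle and highest in lymph node. The mean of 4 lung markers was 7.67 to 8.05 on the lung arrays and 3.41 to 5.07 on the others. Lung arrays 1 and 3 stood apart in their liver genes: ALB (albumin) read 11.04, 3.76, 11.09 and 3.55 on lung arrays 1 to 4, against at least 13.49 on the liver arrays, and the mean of 5 liver markers was 7.27, 3.96, 7.46 and 4.01. The same 5 markers read 5.60 and 7.09 on heart arrays 1 and 2 and 4.35 and 4.38 on heart arrays 3 and 4. They also ran from 4.39 to 5.62 on the kidney arrays and from 4.25 to 5.53 on the brain arrays. Values like that of heart array 1 were thus not confined to heart and lung, and no kidney array was among those left out together below. Pancreas genes were seen beyond pancreas too: the mean of 5 pancreas markers, at least 13.47 on the pancreas arrays, was 7.18, 3.78, 8.13 and 9.55 on skeletal muscle arrays 1 to 4. It was 6.33 on brain array 3, 5.96 on lymph node array 4, 5.63 on liver array 4 and 3.58 to 3.85 on the lung arrays. SNAP25, a neuronal synaptic protein, read 6.27 on lung array 2 and 3.29 to 3.46 on the other lung arrays. Airway genes also varied among lung arrays, with BPIFA1, a secreted airway protein, at 10.11, 4.68, 9.98 and 6.61. The part of these differences in the results was not tested, and values without these arrays are given where they matter. The 2 most alike arrays of the series were both lung arrays (r 0.995), against at most 0.985 between 2 arrays of another organ. Whether all 4 lung arrays are independent samples was not tested, and each SE and p-value counts them as 4.

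Lung was compared with the unweighted mean of the other 9 organs by limma, a linear model with a moderated variance, with Benjamini-Hochberg adjustment over all probesets and a call at a false discovery rate of 0.001. Of the 14 probesets, 13 were higher in lung, where the background was 7.26% of all probesets. None of the 14 was lower, against a background of 4.22%. The probeset not called was one of the 3 for SCGB1A1. The organs without a call had median arrays of 3.10 to 4.52 over the 14 probesets, near the array medians, and no measure of background was used. Each fold is therefore a ratio of RMA values whose denominator was not shown to lie above background, and the size and order of the folds are those of these values only. Over 10-fold higher were 10 of the 14, against 0.614% of all probesets. Lung was higher than each of the other 9 organs in pairwise contrasts for 9 of the 14, against 0.714%. Every lung array lay above every other array for 9 of the 14, against 1.11%. Leaving out lung arrays 1 and 3 together gave the same counts of 13, 10 and 9 in these contrasts, and leaving out all 10 arrays named above for liver or pancreas markers gave 13, 10 and 8.

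**Figure D1:**
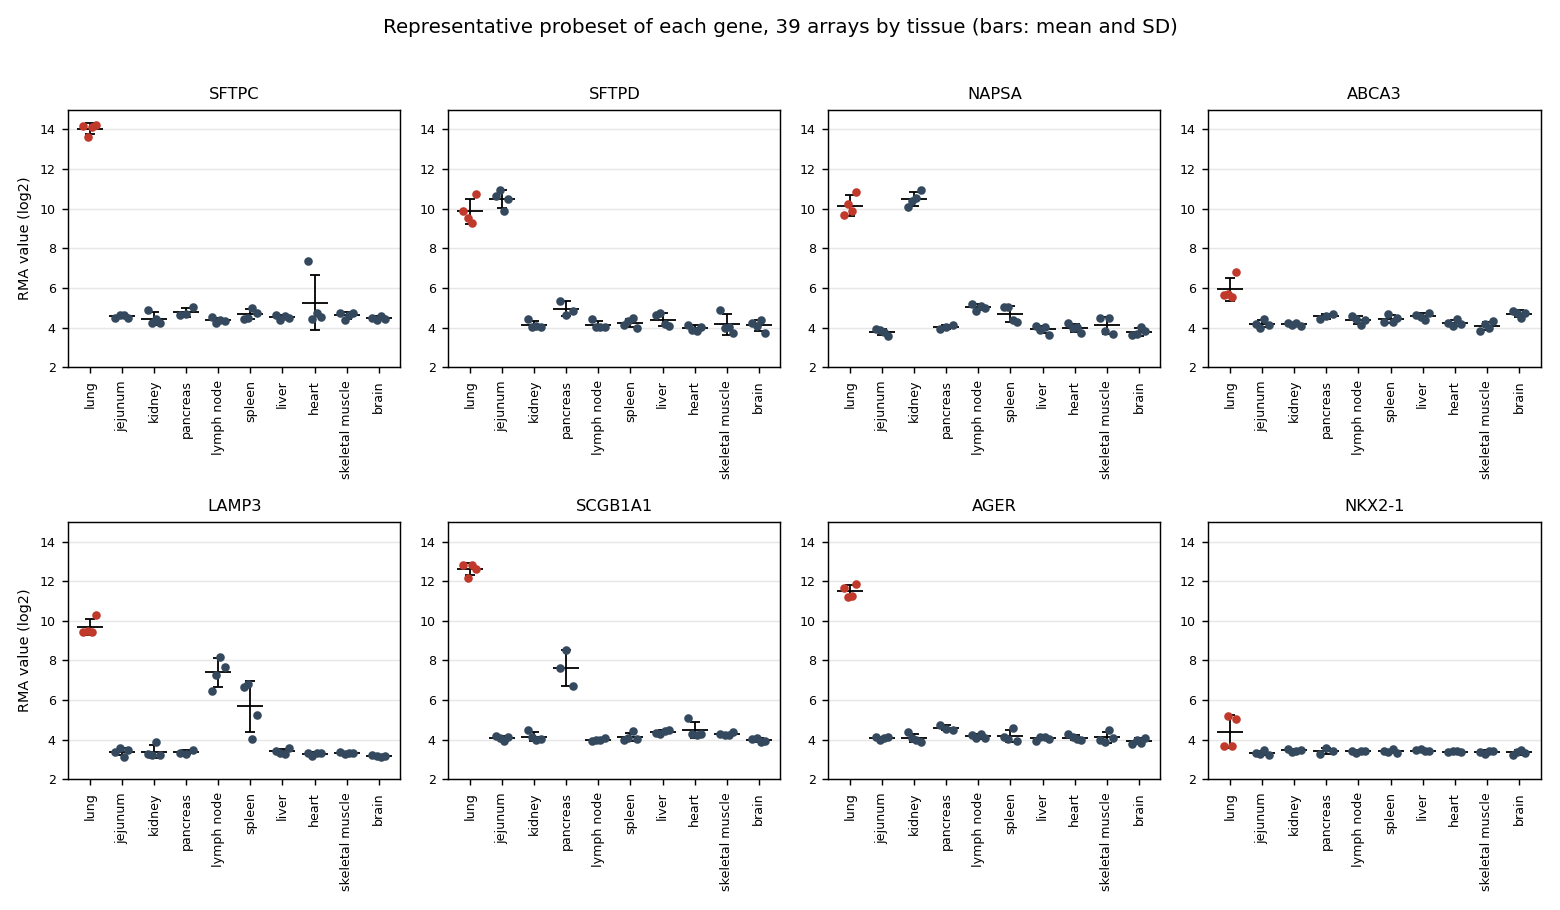
RMA values (log2, y axis) of the probeset with the highest mean over the 39 arrays for each of the 8 genes, by organ (x axis). Each point is an array, red for lung, and the bars are the mean and SD. SFTPC, ABCA3, SCGB1A1, AGER, LAMP3 and NKX2-1 had every lung array above every other array, while SFTPD in jejunum and NAPSA in kidney lay at the level of lung.

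**Figure D2:**
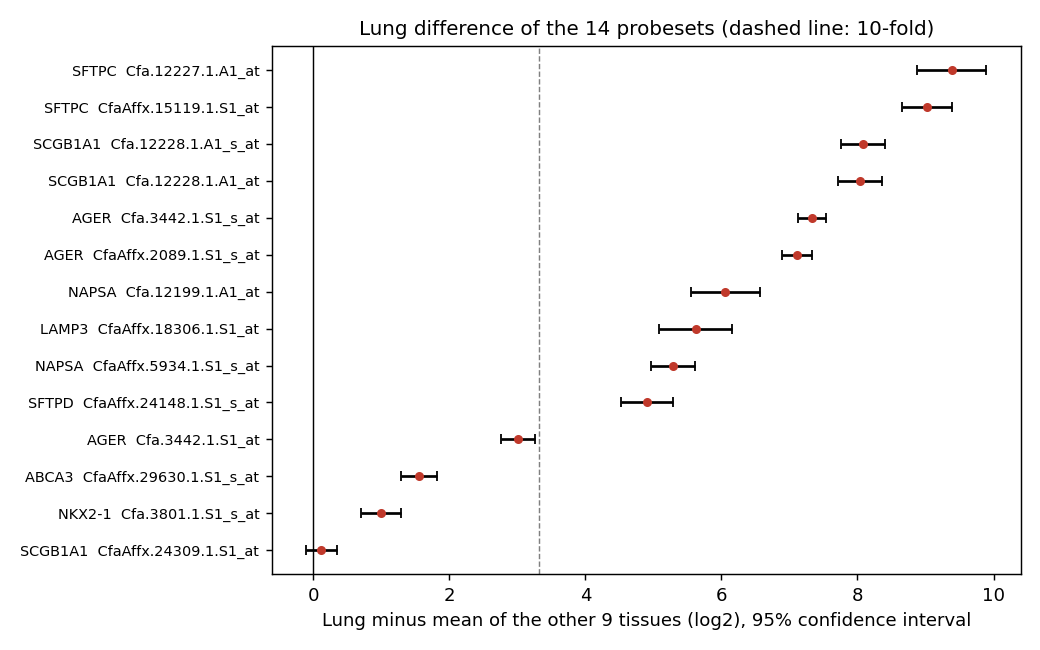
Difference of the lung mean from the mean of the other 9 organs (log2, x axis) for the 14 probesets (y axis), with 95% confidence intervals from limma. The differences run from 0.12 for CfaAffx.24309.1.S1_at of SCGB1A1 to 9.39 for SFTPC, and 10 points lie right of the dashed 10-fold line.

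SFTPC, the hydrophobic surfactant protein made by alveolar type II cells, showed the largest lung difference in RMA value of the 14 probesets. On probeset Cfa.12227.1.A1_at the lung arrays read 14.17, 13.62, 14.10 and 14.22. The heart arrays read 7.34, 4.43, 4.73 and 4.54, and the remaining 31 arrays ran from 4.24 to 5.04. Lung and the other organs did not overlap, and 1 heart array stood above every other array outside lung. The lung mean exceeded the mean of the other organs by 9.39 on the log2 scale (SE 0.25), a ratio of 669.6 in RMA value, with an adjusted p of 4.44e-24. Below lung, the ranges of neighbouring organs in the order of the means overlapped throughout, from heart to lymph node.

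The second SFTPC probeset, CfaAffx.15119.1.S1_at, gave the same picture. Its lung arrays read 12.65, 13.02, 12.61 and 13.19, and its heart arrays 5.70, 3.83, 3.80 and 3.80. The lung difference was 9.02 (SE 0.18, 520.3-fold, adjusted p 1.17e-27). Heart array 1 was again the highest array outside lung.

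On heart array 1, SFTPC exceeded the mean of heart arrays 2 to 4 by 2.78 and 1.89 on its 2 probesets. SCGB1A1 exceeded it by 0.81 and 0.51 on its 2 lung probesets, and the remaining 10 probesets of the group by -0.04 to 0.34. Of 91 other probesets that were over 10-fold higher in lung and higher there than in each organ, 5 exceeded the mean of the other heart arrays by over 1, with a median excess of 0.085. Heart array 2 had 6 such probesets, and heart arrays 3 and 4 had 1 and 4. The mean of 13 other alveolar type II cell markers was 3.78 on heart array 1 and 3.76 to 3.78 on the other heart arrays. The 91 probesets were chosen on these same arrays for being higher in lung than in heart. The 13 markers averaged only 5.97 to 6.20 on the lung arrays, far below SFTPC there. Neither reading could therefore decide the origin of the SFTPC value on this array, which was not tested. Without it the SFTPC lung differences were 9.46 and 9.08.

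SFTPD, the collectin surfactant protein D, was the member with a jejunum level as high as that of lung. On CfaAffx.24148.1.S1_s_at, lung read 9.87, 9.54, 9.28 and 10.77. Jejunum read 10.66, 10.93, 9.86 and 10.50. All other arrays ran from 3.72 to 5.36, the highest being a pancreas array.

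Lung and jejunum overlapped, and both lay far above the other 8 organs. The lung mean was 4.90 above the mean of the other 9 organs (SE 0.19, 29.9-fold, adjusted p 1.92e-19), although jejunum is part of that mean. Lung minus jejunum was -0.62, with a 95% confidence interval from -1.14 to -0.10 and an adjusted p of 0.0879. To find sources outside lung, each organ was compared with the mean of the 8 others with lung left out. Jejunum was 6.22 higher in that contrast (SE 0.19, 74.5-fold, adjusted p 9.32e-23), where 6.33% of all probesets were called higher in jejunum.

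The jejunum arrays showed no comparable level of the other alveolar type II cell markers, whose mean over 13 genes was 3.86 to 4.14 there and 5.97 to 6.20 in lung. SFTPC read 4.49 to 4.66 in jejunum. In pancreas, next in order for SFTPD, the 3 arrays read 5.36, 4.66 and 4.85, and they overlapped those of liver, the next in order.

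NAPSA, the protease napsin A that takes part in surfactant protein processing, was as high in kidney as in lung on both probesets. On CfaAffx.5934.1.S1_s_at, the lung arrays read 9.67, 10.23, 9.88 and 10.85. The kidney arrays read 10.10, 10.41, 10.53 and 10.96. Lymph node followed with 5.18, 4.84, 5.11 and 4.97. Lung and kidney overlapped, and neither overlapped with any other organ.

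Against the mean of the other 9 organs, lung was 5.28 higher (SE 0.16, 38.9-fold, adjusted p 1.40e-22). Lung minus kidney was -0.35, with a 95% confidence interval from -0.78 to 0.09 and an adjusted p of 0.328. With lung left out, kidney was 6.33 above the mean of the other 8 organs (SE 0.16, 80.5-fold, adjusted p 2.52e-25), in a contrast where 7.45% of all probesets were called higher in kidney. These values place lung and kidney in the same range, with an interval that allows a lung level up to 0.78 lower.

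The second NAPSA probeset, Cfa.12199.1.A1_at, repeated the order lung and kidney, then lymph node, then spleen. It read 10.53, 10.86, 10.16 and 11.54 in lung and 11.27, 11.02, 11.31 and 11.50 in kidney. Lymph node read 6.28, 5.22, 5.0 and 5.33, and spleen 6.21, 5.75, 3.76 and 4.15. Every lymph node array lay above every array of the 6 organs below spleen, and the spleen arrays spanned 2.45 log2 units. Lung was 6.06 higher than the mean of the other 9 organs (adjusted p 8.05e-19). Lung minus kidney was -0.50 (95% confidence interval -1.18 to 0.17, adjusted p 0.377). Neither lymph node nor spleen was called higher for NAPSA in the contrasts without lung, whose reference includes kidney, with differences of 0.84 (adjusted p 0.00846) and 0.29 (adjusted p 0.418) on this probeset. In kidney the 13 other alveolar type II cell markers had means of 4.33 to 4.56.

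ABCA3, the transporter that loads phospholipid into lamellar bodies, had a modest lung difference. On CfaAffx.29630.1.S1_s_at, lung read 5.65, 5.72, 5.55 and 6.81. Brain, the next organ, read 4.85, 4.74, 4.47 and 4.76, and all arrays outside lung ran from 3.85 to 4.85. The lung arrays lay above all others, and lung array 4 stood above the remaining lung arrays by more than their whole range. The difference was 1.56 (SE 0.13, 2.94-fold, adjusted p 3.23e-11), and 1.26 without lung array 4. From brain down to skeletal muscle, neighbouring organs overlapped.

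LAMP3, a membrane protein of lamellar bodies and of mature dendritic cells, was graded over 3 organs. On CfaAffx.18306.1.S1_at, lung read 9.45, 9.51, 9.45 and 10.29. Lymph node read 6.47, 7.28, 8.16 and 7.69, and spleen 6.64, 6.82, 4.06 and 5.23. The other 7 organs ran from 3.14 to 3.87.

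Lung did not overlap lymph node, lymph node overlapped spleen, and spleen did not overlap the organs below it. Lung was 5.62 higher than the mean of the other 9 organs (SE 0.26, 49.2-fold, adjusted p 2.65e-17), and 2.28 higher than lymph node alone (95% confidence interval 1.56 to 2.99, adjusted p 7.18e-06). With lung left out, lymph node was 3.76 higher than the other 8 organs (SE 0.26, 13.6-fold, adjusted p 4.95e-13), where 10.6% of all probesets were called higher in lymph node. Spleen was 1.83 higher in its own contrast (SE 0.26, 3.56-fold, adjusted p 1.89e-06), where 6.12% of all probesets were called.

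Mature dendritic cell markers were read beside LAMP3. The mean of 12 such markers, which include CCR7, CCL19, CD83 and IDO1, was 7.55, 7.66, 8.48 and 8.10 on the lymph node arrays. It was 6.55, 6.83, 6.15 and 6.0 on the spleen arrays and 5.82, 5.81, 5.87 and 5.96 on the lung arrays. The 4 lymph node arrays stood in the same order for LAMP3 and for the markers, and in spleen arrays 1 and 2 were the higher ones for both. Spleen arrays 3 and 4 stood in opposite order for LAMP3 and for the markers. Lung had the highest LAMP3 at a lower mean of the markers than lymph node, but single markers differed: CCR7 averaged 3.78 in lung and 6.41 in lymph node, while IDO1 was highest in lung (10.80). The list also holds CCL21, a ligand of CCR7 that is not specific to dendritic cells, so its mean can reflect other cells too. The part of dendritic cells in the LAMP3 values was not tested.

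**Figure D3:**
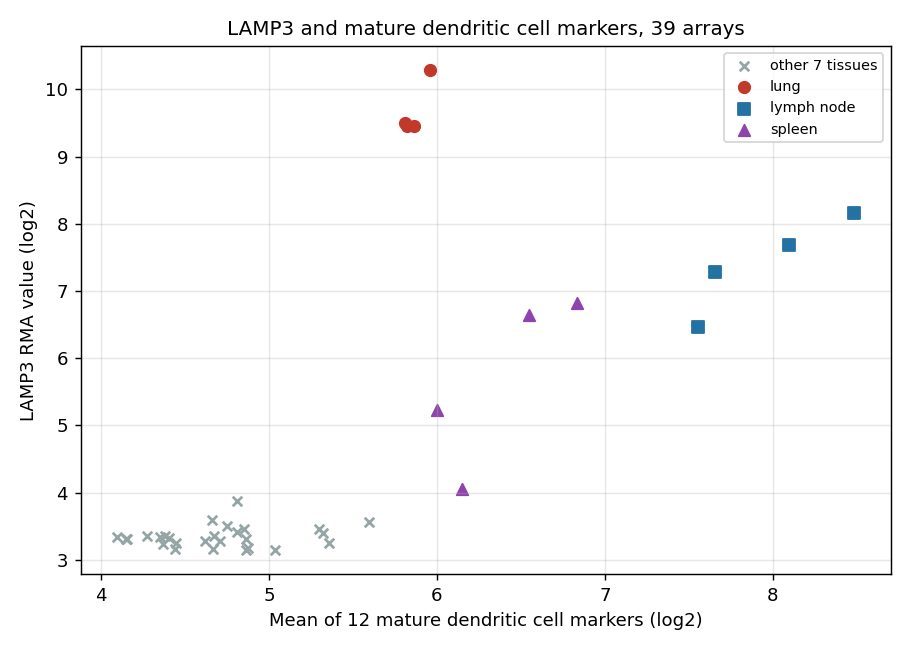
LAMP3 RMA value (log2, y axis) against the mean of 12 mature dendritic cell markers (log2, x axis), 1 point per array. Lymph node arrays lie furthest right at LAMP3 values from 6.47 to 8.16, spleen arrays spread from 4.06 to 6.82, and the lung arrays stand above all others at marker means from 5.81 to 5.96.

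SCGB1A1, the club cell secretory protein, was high in lung and second in pancreas. On Cfa.12228.1.A1_at, the lung arrays read 12.81, 12.16, 12.84 and 12.62. The pancreas arrays read 7.60, 8.54 and 6.73. All other arrays ran from 3.87 to 5.09, the highest being heart array 1. Pancreas overlapped neither lung nor any organ below it.

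Lung was 8.04 higher than the mean of the other 9 organs (SE 0.16, 262.8-fold, adjusted p 1.35e-27) and 4.99 higher than pancreas (31.7-fold, adjusted p 1.76e-17). With lung left out, pancreas was 3.43 higher than the other 8 organs (SE 0.18, 10.8-fold, adjusted p 7.02e-16), where 12.8% of all probesets were called higher in pancreas. The probeset Cfa.12228.1.A1_s_at read 12.46, 11.99, 12.28 and 12.28 in lung and 6.30, 6.93 and 5.07 in pancreas. Its differences were 8.08 for lung (adjusted p 8.66e-28) and 2.18 for pancreas (4.52-fold, adjusted p 3.27e-11).

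The third SCGB1A1 probeset, CfaAffx.24309.1.S1_at, showed none of this. Its lung mean was 3.94 and its highest organ mean was 4.14, in pancreas. Lung differed from the mean of the other organs by 0.12 (95% confidence interval -0.11 to 0.35, adjusted p 0.424), and all neighbouring organs overlapped. The probesets of this gene therefore disagreed, and what each binds was not tested.

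Other airway genes were set beside SCGB1A1. The mean of 10 airway secretory cell markers was 7.38, 5.73, 7.47 and 7.35 on the lung arrays and 5.80 to 5.95 on the pancreas arrays. The kidney arrays read 5.96 to 6.21 and the jejunum arrays 5.44 to 6.22, so outside lung the list was not highest in pancreas. Lung array 2 thus lay below the pancreas and kidney arrays for the list, and it had the lowest SCGB1A1 of the lung arrays. SCGB1A1 on lung array 2 was 0.46 below the next lung array, while BPIFA1 there was 1.93 below the next.

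AGER, the receptor for advanced glycation end products and a surface protein of alveolar type I cells, separated lung from the other organs on 2 of its 3 probesets. On Cfa.3442.1.S1_s_at, lung read 11.63, 11.19, 11.27 and 11.84. Pancreas read 4.76, 4.55 and 4.52, and the other organs ran from 3.80 to 4.60. The lung difference was 7.33 (SE 0.10, 161-fold, adjusted p 9.56e-32). CfaAffx.2089.1.S1_s_at gave 11.06, 10.74, 10.31 and 11.42 in lung, at most 4.26 elsewhere, and a difference of 7.11 (138-fold, adjusted p 8.12e-31).

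On Cfa.3442.1.S1_at the order was different. Pancreas read 8.13, 7.39 and 7.78, lung read 6.85, 6.06, 6.21 and 7.46, and all other organs ran from 2.93 to 3.32. Lung and pancreas overlapped by a single array of each, and both stood at least 2.74 log2 units above the rest. Lung minus pancreas was -1.12 (95% confidence interval -1.49 to -0.75, adjusted p 6.83e-06), while lung was 3.01 higher than the mean of all 9 organs (8.06-fold, adjusted p 1.07e-18). With lung left out, pancreas was 4.65 higher than the other 8 organs (25.1-fold, adjusted p 1.19e-22).

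On Cfa.3442.1.S1_s_at the pancreas difference was 0.52 (1.43-fold, adjusted p 6.10e-04), and it lost its call under 4 other settings and without any 1 of the pancreas arrays, with adjusted p from 0.00148 to 0.0202. On CfaAffx.2089.1.S1_s_at pancreas was not called. The high pancreas level of AGER thus rested on 1 of 3 probesets. The mean of 14 other alveolar type I cell markers was 4.86 to 5.24 in pancreas and 7.67 to 7.80 in lung.

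**Figure D4:**
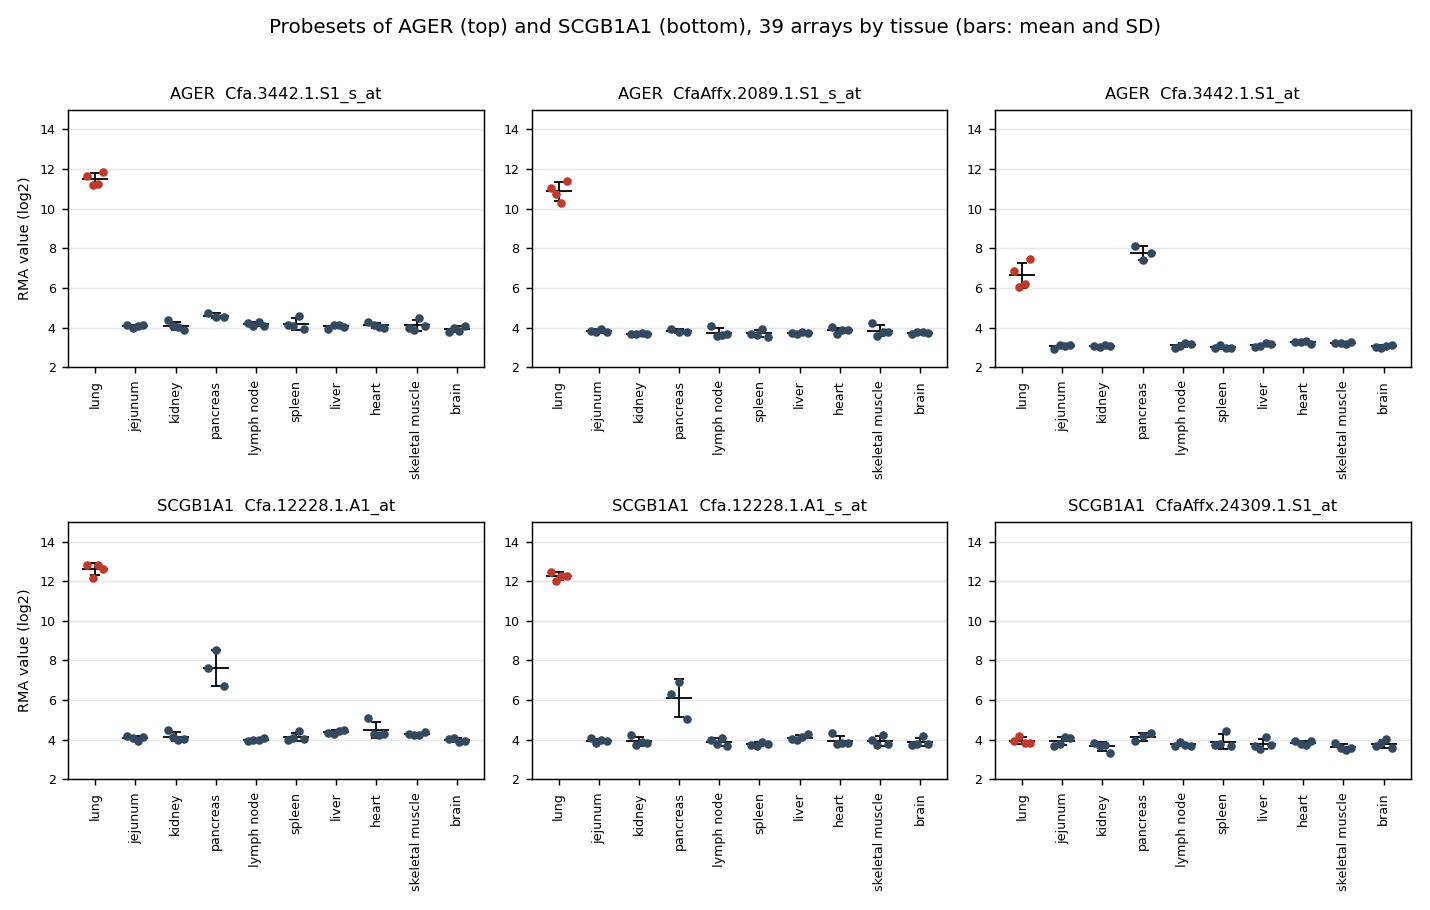
RMA values (log2, y axis) of the 3 AGER probesets (top row) and the 3 SCGB1A1 probesets (bottom row) by organ (x axis), 1 point per array with mean and SD, lung in red. Pancreas is above lung on 1 AGER probeset only, and the last SCGB1A1 probeset has organ means from 3.62 to 4.14.

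NKX2-1, the transcription factor of lung epithelium, gave low values in which lung still stood out. On Cfa.3801.1.S1_s_at, lung read 3.67, 5.2, 3.7 and 5.03, and all other arrays ran from 3.21 to 3.60. All lung arrays lay above all others, but arrays 1 and 3 did so by 0.06 and 0.10. The difference was 0.99 (SE 0.14, 1.99-fold, adjusted p 2.41e-06). It was 0.72 to 1.23 when a single array was left out, and 1.70 without lung arrays 1 and 3, which are those with high ALB.

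The NKX2-1 call was the only one of the 13 lung calls lost under another scaling. When each array was shifted to an equal median of 12 reference genes, which lowers lung by 0.42 against the other organs, the difference was 0.57 with an adjusted p of 0.0047. All 9 other organs overlapped their neighbours in the order.

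Within lung, array 4 was the highest for 6 of the 8 genes and the lowest for none. Array 1 was lowest for 3, array 2 for 3 and array 3 for 2. SDs between the 4 lung arrays ran from 0.27 for SFTPC and 0.31 for AGER to 0.65 for SFTPD and 0.83 for NKX2-1. The mean of other alveolar type II cell markers was 6.04, 6.15, 5.97 and 6.20, and that of 13 ciliated cell markers 5.12, 4.58, 5.28 and 4.77, so the first list spanned less over the lung arrays than the second. These 4 arrays are too few for a correlation between genes within lung.

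Over the 10 organ means, as a description across organs that share the high lung value, SFTPC and AGER had a Pearson's r of 0.995, and SFTPC and NKX2-1 0.99. SFTPD and NAPSA, with their own second organs, had 0.27. The genes most like each member over the 10 means were then listed. LYZF2, BPIFA1 and CLDN18 were most like SFTPC (r from 0.995 to 0.996), and CYP4B1, ANOS1 and TBX4 most like AGER (0.997 to 0.998). CLDN18, ANOS1 and TBX4 were most like NKX2-1 (0.991 to 0.992), and BMPER, C9H9orf116 and PPP1R32 most like ABCA3 (0.951 to 0.962).

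The genes with SFTPD's pattern peaked in jejunum. They were CLCA1, GPX2 and S100A14, with r from 0.985 to 0.995 and jejunum means of 11.83, 7.91 and 7.21. MUC20, SCNN1B and COL4A3 were most like NAPSA (0.952 to 0.968), all highest in kidney. BCOR, LOC609235 and CLIC2 were most like LAMP3 (0.956 to 0.982), and DNAAF6, PLA2G10 and RTKN2 most like SCGB1A1 (0.977 to 0.987), all 6 highest in lung.

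The other genes of the pathway and of lung cell types were read from 9 lists with 135 measured genes, by the probeset with the highest mean for each gene and in the same lung contrast. Of all 15115 genes with a symbol of their own, 8.59% were higher and 5.06% lower in lung, with a median difference of -0.07. These shares belong to the fit with all arrays. Counts from fits with arrays left out or another scaling have no such share beside them. A lower count there need not be particular to a list. Among surfactant lipid genes, 7 of 21 were higher, 0 lower, and the median was 0.40. The largest differences were those of PLA2G1B, CTSH and ADGRF5. PLA2G1B, a secreted phospholipase, was highest in pancreas (13.60), and its lung mean was 3.61 above the mean of the other 9 organs. The difference was 3.31 for CTSH, a cathepsin that processes surfactant proteins, and 2.92 for ADGRF5, the receptor that controls surfactant pool size. At the other end, PCYT1A, the rate-limiting enzyme of phosphatidylcholine synthesis, differed by -0.47 (adjusted p 0.327) and LPIN1, a phosphatidate phosphatase, by -0.44 (adjusted p 0.259).

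Of the other alveolar type II cell markers, 9 of 13 were higher, 0 lower, and the median was 1.6. CLDN18, a tight junction protein, was 6.65 higher (101-fold, adjusted p 7.63e-31), SFTA2, a small surfactant associated protein, 3.64, and the kinase LRRK2 3.52. PGC differed by -0.24 (adjusted p 0.0316) and MUC1 by -0.01 (adjusted p 0.966). Of the alveolar type I cell markers, 10 of 14 were higher, 0 lower, and the median was 1.93. The chloride channel family member CLIC3 was 5.38 higher, podoplanin (PDPN) 4.91 and GPRC5A 4.50, while IGFBP2 differed by -0.68 (adjusted p 0.209) and CLIC5 by -0.02 (adjusted p 0.827).

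Of the airway lists, secretory markers had calls in both directions and ciliated markers in 1. Of 10 airway secretory markers, 6 were higher and 1 lower, with a median of 2.30. BPIFA1 was 4.13 higher with an SD of 2.66 between the lung arrays, WFDC2 4.03 and BPIFB1 3.45. CLDN10, a claudin highest in pancreas (10.21), was the one called lower, 2.46 below a mean that includes pancreas (adjusted p 1.80e-14). The immunoglobulin receptor PIGR differed by -0.01 (adjusted p 0.965). Without the 10 arrays with liver or pancreas markers, 3 secretory markers were higher. Of 13 ciliated cell markers, 6 were higher and 0 lower, with a median of 0.32. TPPP3 was 3.19 higher, the axonemal genes RSPH1 1.96 and TEKT1 1.93, while the dynein DNAH9 differed by -0.24 (adjusted p 0.0678) and CCDC39 by 0.00 (adjusted p 0.994).

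Among 15 other transcription factors listed for lung epithelium, 6 were higher and 0 lower, with a median of 0.40. The list was set by name and holds TBX4, which is known from lung mesenchyme. The cells behind these values were not tested. TBX4 was 2.85 higher, KLF5 2.6 and FOXA2 1.92, of which KLF5 was highest in jejunum and FOXA2 in liver. SOX9 differed by -0.12 (adjusted p 0.524) and TEAD1 by -0.09 (adjusted p 0.44). The count was 3 without lung array 3, without lung array 4, or without lung arrays 1 and 3 together.

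A pair of immune lists covered other cells of the lung. Of 14 alveolar macrophage markers, 5 were higher and 0 lower, with a median of 0.73. CHI3L1, a secreted chitinase-like protein, was 6.4 higher, GPNMB 4.32 and the mannose receptor MRC1 3.02, while FABP4 differed by -2.55 (adjusted p 0.0272) and SIGLEC1 by -0.35 (adjusted p 0.33). Of 12 mature dendritic cell markers, 3 were higher and 0 lower, with a median of 0.13. IDO1, a tryptophan-degrading enzyme, was 4.50 higher, CCL21, which is not specific to dendritic cells, 1.84, and CD86 1.16. MARCKSL1 differed by -0.54 (adjusted p 0.178) and CCR7 by -0.40 (adjusted p 0.131). The dendritic count was 1 without lung array 1, 3 or 4, and the macrophage count was 3 without lung arrays 1 and 3 together.

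Relatives of the members by gene family were mixed. Of 28 with a probeset, 8 were higher and 2 lower, with a median of 0.40, and without lung arrays 1 and 3 together 5 were higher. The adhesion molecules BCAM and MCAM, of the same immunoglobulin superfamily as AGER, were 3.60 and 3.18 higher, and the aspartic protease BACE2 3.20. BACE1, the related protease highest in brain, was 0.83 lower in lung (adjusted p 7.45e-05). NKX2-5, the cardiac relative of NKX2-1, was 0.50 lower (adjusted p 4.42e-05), against a mean that includes heart. PSAP, the precursor of the saposins, differed by -0.60 (adjusted p 0.0483). The lysosomal relatives of LAMP3 were not called, with differences of 0.44 for LAMP1 and -0.27 for LAMP2.

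**Figure D5:**
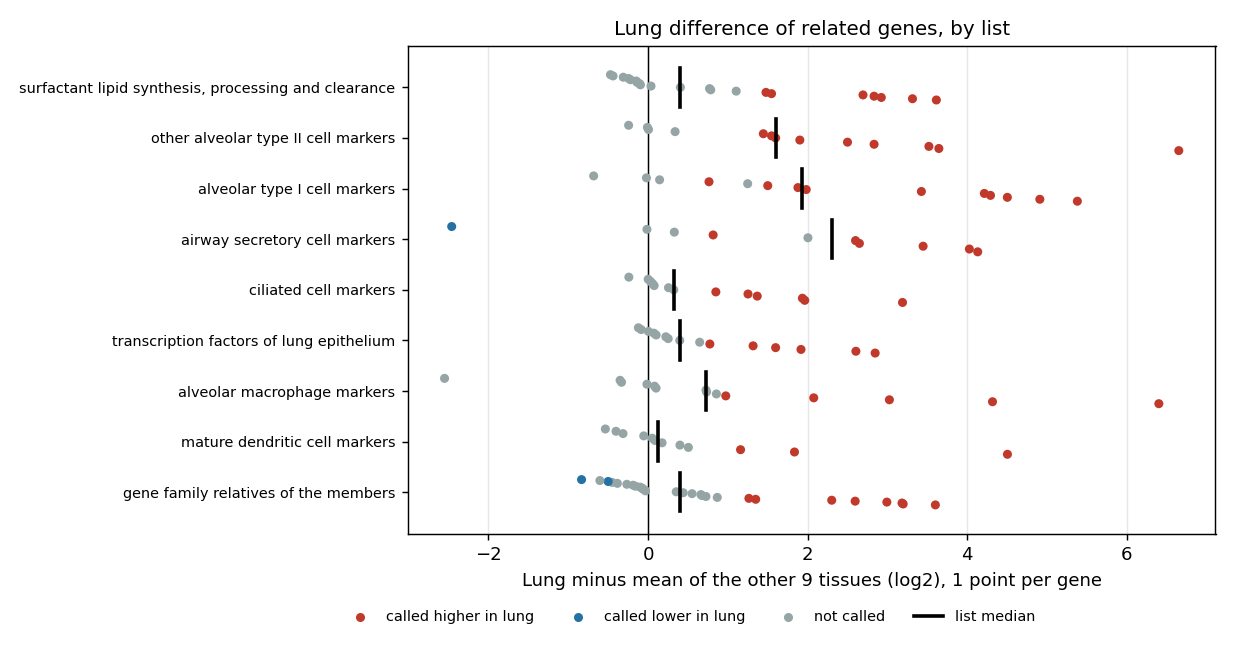
Difference of the lung mean from the mean of the other 9 organs (log2, x axis) for the genes of 9 lists (y axis), 1 point per gene, red where higher in lung, blue where lower and grey where not called, with the list median as a black bar. The medians run from 0.13 for mature dendritic cell markers to 2.30 for airway secretory cell markers, against -0.07 over all genes.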

How the data were processed

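RNA of 39 dog organ samples was hybridised to Affymetrix Canine 2.0 arrays. The deposited values are on a log2 scale: the authors used Partek to correct probe signals for sequence and GC content, subtract background by RMA, normalize by quantiles and summarise each probeset by median polish, after 1 pancreas array had been left out. Values were used as deposited. Of 42860 probesets, 29254 had a single symbol, 439 several and 13167 none, and only single symbols named a gene.

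A mean per organ was fitted with limma 3.58.1 in R 4.3.3 to all probesets and arrays, with Benjamini-Hochberg adjustment over all probesets within each contrast and calls at a false discovery rate of 0.001. The fit was tested on simulated data. A fold is 2 to the power of the log2 difference, the SE comes from the pooled variance, and precision is limited by having 3 or 4 arrays per organ. The study's model had scan date as a random factor, which the labels used here do not give. P-values reflect only the spread among the arrays at hand.

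All probesets of the named genes are reported. The text names the top 3 and bottom 2 genes of each list by lung difference, and for each gene the 3 others with the highest r over the organ means. A few further genes were named after their values were seen: ALB and SNAP25 as checks of arrays, CD83, CCL19, LAMP1, LAMP2 and NKX2-5. The genes and lists were chosen with earlier results of these data known. Alternatives changed the variance estimate, the scaling, a filter on dim probesets, the threshold, the reference of the fold, the probeset of a gene and the replicate number as a block, and left out each array in turn. Leaving out lung arrays 1 and 3 together, and 10 arrays with liver or pancreas markers together, was added after seeing the data. The share of all genes called in each alternative is not given here. Probe and promoter sequences and genome positions were not analysed here.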

Additional observations from a re-analysis of the deposited data

Results flagged for a closer look

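In 8 of 72 groups of 4 arrays, 1 array of the probeset with the highest mean lay far from the other 3 by Dixon's criterion, which chance meets in about 1 in 20 groups. On heart array 1, SFTPC read 7.34 against 4.73 on the nearest heart array, and SCGB1A1 read 5.09 against 4.31. Lung array 4 was apart for ABCA3 (6.81, nearest 5.72) and for LAMP3 (10.29, nearest 9.51). SFTPD was apart on kidney array 1 (4.45, nearest 4.08) and on lymph node array 1 (4.45, nearest 4.05), and LAMP3 on kidney array 3 (3.87, nearest 3.27) and heart array 2 (3.16, nearest 3.33). The last 4 values lie near the level of most probesets.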

How the results depend on the processing

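The counts of members higher in lung (13), over 10-fold (10) and higher than in each other organ (9), and of calls outside lung (9), were within 1.5 times of these values under every alternative run, except that 14 calls outside lung were made at a false discovery rate of 0.05. Leaving out each array in turn gave 13 to 13, 10 to 10, 8 to 9 and 8 to 9. It also gave 50 to 58 listed genes higher (57 with all arrays). The calls outside lung among the 14 probesets were 4 in pancreas, 2 in kidney and 1 each in jejunum, lymph node and spleen. In the contrasts without lung, 6.12% (spleen) to 12.8% (pancreas) of all probesets were called higher. The total of 9 was not tested against these shares, so it does not show members called outside lung more often than other probesets. Listed genes lower in lung numbered 3, and were 3 to 4 with 1 array left out, 8 with an equal median of reference genes, 7 at a rate of 0.05 and 1 without lung arrays 1 and 3, a fit with fewer samples. With the replicate block the counts were 13, 10, 9 and 9, with 57 listed genes higher and 3 lower, so it changed no count. Whether the numbers pair the dogs is not stated: deviations correlated over 0.1 in 101 of 171 same-numbered pairs of arrays from different organs (median 0.14, lowest -0.29), against 70 of 513 pairs with different numbers (median -0.05, lowest -0.39). On average 30 of 39 arrays were closest to their own number, a hint from the data that the numbers mark dogs. With an equal median of reference genes, 12 members were higher in lung, 7 were higher than each other organ and 43 listed genes were higher, and the higher transcription factors, macrophage and dendritic markers numbered 3, 3 and 1. Without the 10 arrays with liver or pancreas markers, a fit with fewer samples in which skeletal muscle keeps 1 array that is assumed to vary like the other organs, the counts were 13, 10, 8 and 9, with 37 listed genes higher and 2 lower. The dim filter, a highest organ mean of at least 5, kept 12 of the 14 member probesets, leaving out NKX2-1. Signal over background was not measured, which limits the fold of every member. No alternative turned the direction of a member difference that was called. The difference of 0.12 of the SCGB1A1 probeset not called is smaller in size than the lung shift of -0.42 under equal reference genes. Its direction is therefore not settled.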
